A study of Mus musculus with 32 samples.

Results

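The livers of mice given glipizide were compared directly with those of mice given rosiglitazone, 4 arrays of the glipizide group (GLIP) against 4 of the rosiglitazone group (ROS), which are 8 of the 32 arrays of the study. The arrays were chosen by their titles alone, and every probe set other than the manufacturer's controls was considered. All mice were males of the B6C3F1 hybrid strain, each with its own Affymetrix MG-U74Av2 array of liver RNA, and all were housed singly from 5 months of age. From 20 months, GLIP mice ate a defined diet of 93 kcal per week with glipizide mixed in, ROS mice ate the same diet with rosiglitazone, and control mice (CON, 4 arrays) ate it with no drug, in each case for 8 weeks. Food was withdrawn for 48 hours before death at 22 months, so the livers of every group are those of old, fasted animals. The sources used here do not state the doses, and the comparison is therefore between the 2 regimens as fed.

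Both drugs lower blood glucose in type 2 diabetes, by different routes. Glipizide is a sulfonylurea: it closes the ATP-sensitive potassium channel of pancreatic beta cells and so raises the secretion of insulin, which acts on the liver. Rosiglitazone is a thiazolidinedione: it binds the nuclear receptor PPAR gamma, which drives lipid storage genes in fat cells and is sparse in normal mouse liver, and it makes tissues more sensitive to insulin. Insulin represses gluconeogenic genes and Igfbp1 in hepatocytes, whereas fasting activates the related receptor PPAR alpha and with it fatty acid oxidation, autophagy and lysosomal breakdown.

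Each array gave 1 linear intensity per probe set, already scaled by the authors. Across the 8 GLIP and ROS arrays the Pearson correlations of log2 values lay between 0.957 and 0.973. Hepatocyte markers were high throughout: the summed intensity of 10 of them, albumin and transthyretin included, spanned 129345 to 161578 in GLIP, 132752 to 155909 in ROS and 130909 to 143486 in CON. One array of the 8 carried skeletal muscle transcripts, ROS 4, and CON 3 carried them as well. The muscle actin Acta1 read 48.3 or less in GLIP, and in ROS it read 10461 in ROS 4 and 192 or less in the others. The 14 tested muscle markers summed to 13650.4 to 17679.9 in GLIP and 12546 to 43367 in ROS, and all 14 averaged lower in GLIP. GLIP 3 had the highest macrophage signal: the 12 tested Kupffer cell and macrophage markers summed to 5241 to 19494 in GLIP, 4929.5 to 7829.7 in ROS and 5494 to 6885 in CON. In bulk tissue, more cells of a type and more RNA per cell cannot be told apart.

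Only 2 genes separated the drugs after correction for multiple tests. Of 7357 tested probe sets, 2 passed (0.0272%), with an adjusted p under 0.05 in limma's moderated test over all 8 groups, and both were higher in GLIP: Apoa4 and Rundc3a. No probe set passed in the other direction. At an unadjusted p under 0.05, 529 probe sets differed, 286 higher and 243 lower in GLIP. Counted over the 5545 named genes, 221 were higher (3.99%) and 188 lower (3.39%) at that level, and the 4 GLIP and 4 ROS arrays did not overlap for 139 genes higher (2.51%) and 106 genes lower (1.91%) in GLIP. These 4 shares are the background for the counts of each gene group below. The count of called probe sets was 5 without ROS 2 and 4 without ROS 4, and Apoa4 and Rundc3a were among the calls each time. In a fit to the 8 arrays alone neither gene passed (adjusted p = 0.11 for Apoa4 and 0.136 for Rundc3a), and 1 other gene, Cyp1a2, did.

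**Figure D1:**
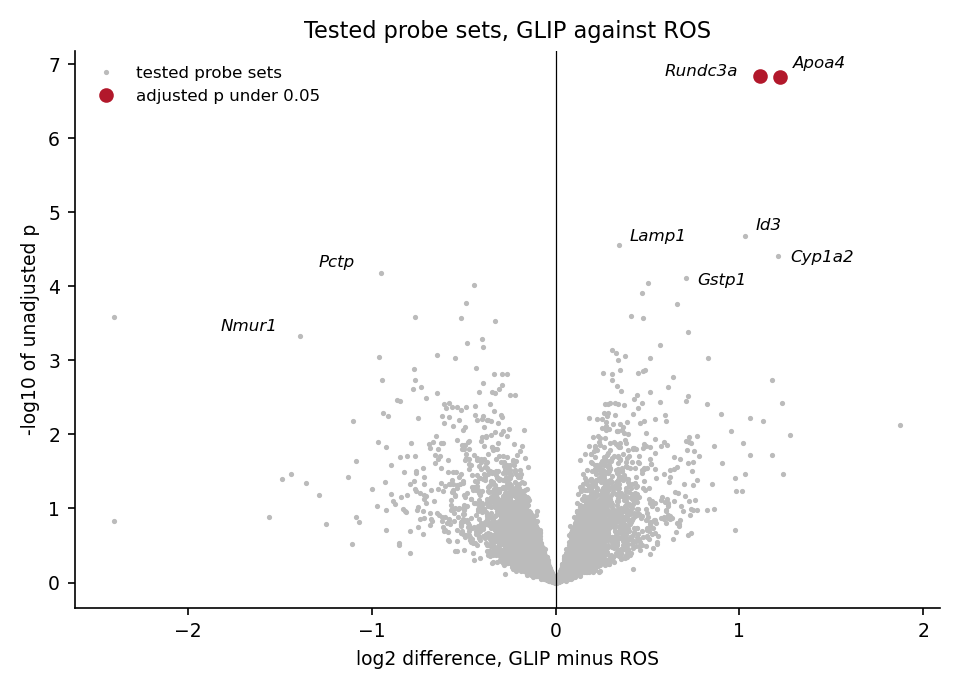
Each point is 1 of 7357 tested probe sets, with the log2 difference GLIP minus ROS across and minus log10 of the unadjusted p up. The 2 red points, Apoa4 and Rundc3a at log2 differences of 1.22 and 1.11, passed an adjusted p of 0.05, and the other named genes did not.

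Apoa4 (probe set 100078_at), an apolipoprotein of chylomicrons and high-density lipoprotein that mouse liver makes strongly in fasting and a gene of the lipoprotein list, was lowest in ROS. Its intensity was 8761, 10776, 9082 and 7144 in GLIP, 3681, 2621, 4814 and 4399 in ROS and 11456, 12798, 12371 and 12975 in CON. The 3 groups did not overlap: every ROS array lay below every GLIP array, and every GLIP array below every CON array. The log2 difference GLIP minus ROS, given here and throughout with its standard error, was 1.22 ± 0.18 (adjusted p = 0.000545), with group means of 8941 ± 1489 in GLIP and 3879 ± 960.2 in ROS (SD, n = 4 each). Against CON, Apoa4 fell by 1.70 on the log2 scale in ROS (adjusted p = 1.26e-06), and its value in GLIP was -0.48 ± 0.18 (adjusted p = 0.345).

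Rundc3a (103960_at), a protein with a RUN domain that binds the small GTPase Rap2 and is best known from neurons, was lowest in ROS as well. Its intensity was 633, 749, 779 and 535 in GLIP, 309.9, 224, 258 and 414 in ROS and 928, 749.9, 903 and 716 in CON. All 4 ROS arrays lay below all 8 others, while GLIP and CON overlapped. The log2 difference GLIP minus ROS was 1.11 ± 0.16 (adjusted p = 0.000545), against -0.29 ± 0.16 for GLIP minus CON and -1.40 ± 0.16 (adjusted p = 5.91e-06) for ROS minus CON. Both genes passed with each of the 8 arrays left out in turn, at log2 differences from 1.05 to 1.34 for Apoa4 and 0.99 to 1.26 for Rundc3a. In the other groups of the series, Rundc3a averaged 712 under metformin, 523 after 8 weeks of calorie restriction and 779 under lifelong restriction. It averaged 685 under glipizide plus metformin and 818 under soy isoflavones.

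**Figure D2:**
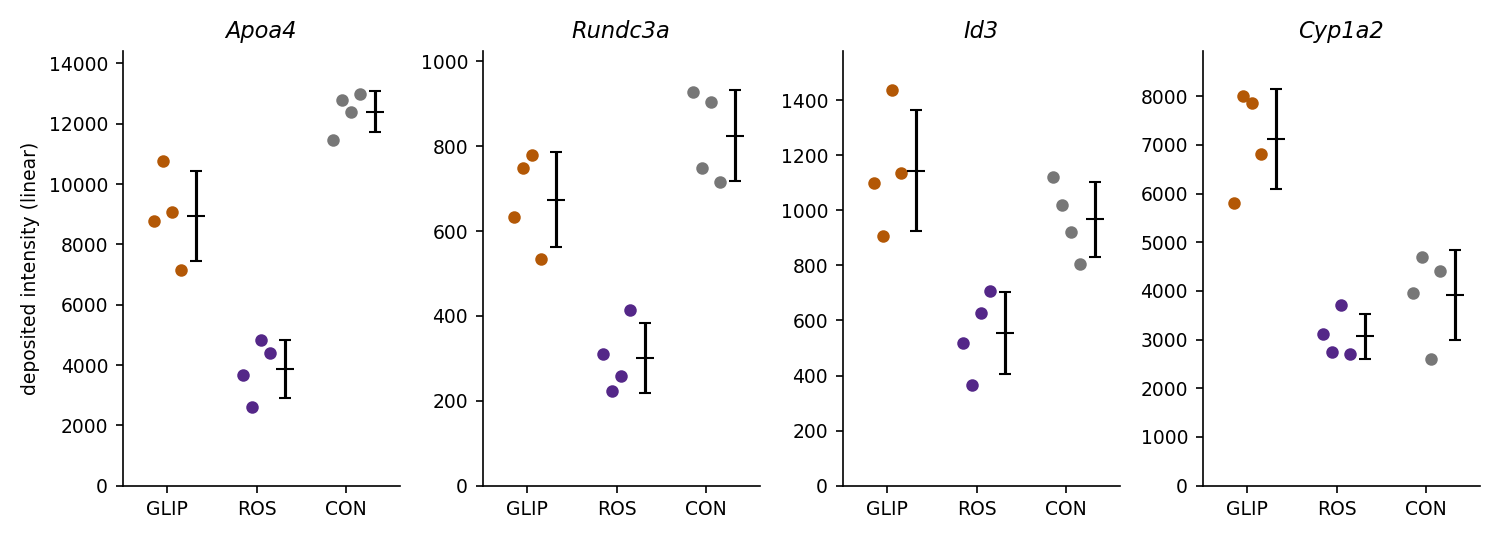
Deposited linear intensity of 4 genes in each array, with GLIP, ROS and CON side by side, points for arrays and black bars for mean and SD (n = 4). The 4 GLIP points lie above the 4 ROS points for all 4 genes; only Apoa4 and Rundc3a passed the adjusted test.

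Among other genes with a small unadjusted p, several were higher in GLIP without passing. Id3, a dominant inhibitor of basic helix-loop-helix transcription factors, read 1099.7, 906, 1437 and 1137 in GLIP and 518, 365, 627 and 708 in ROS, a log2 difference of 1.03 ± 0.20 (adjusted p = 0.051). Cyp1a2, the cytochrome P450 of caffeine metabolism that the aryl hydrocarbon receptor induces, read 5796, 8001, 7868 and 6807 in GLIP and 3117, 2738, 3711 and 2699 in ROS (log2 difference 1.21 ± 0.25, adjusted p = 0.0579). The GLIP and ROS arrays did not overlap for either gene, and the CON mean lay nearer GLIP for Id3 and nearer ROS for Cyp1a2. Id3 in CON read 1123, 1019.8, 923 and 806, and Cyp1a2 in CON read 3965, 4706, 2593 and 4399. Neither drug passed against CON for these genes. Id3 differed from CON by -0.80 ± 0.20 in ROS (adjusted p = 0.125), and Cyp1a2 by 0.88 ± 0.25 in GLIP (adjusted p = 0.206). Trp53inp2, a scaffold of autophagosome formation, was at 2027 ± 207 in GLIP and 1429 ± 194 in ROS (log2 difference 0.50 ± 0.11, adjusted p = 0.0797). Il6st, the shared receptor subunit of the interleukin 6 family, differed by 0.49 ± 0.14, but its second probe set gave -0.08, so its sign is uncertain.

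On the lower side, Pctp, which carries phosphatidylcholine between membranes, had the smallest p. It read 389.5, 593, 443 and 462 in GLIP and 1094, 637, 1039.5 and 1013 in ROS, with no overlap, a log2 difference of -0.95 ± 0.20 (adjusted p = 0.0797). Its CON arrays ran from 518 to 1175 and reached into both groups. Nmur1, a receptor for the peptide neuromedin U, was dim and read 62.8, 76.9, 43.6 and 62.2 in GLIP against 226, 129, 234 and 242 in ROS (log2 difference -1.39 ± 0.35, adjusted p = 0.17). Vnn1, the pantetheinase that recycles vitamin B5 and a sensitive PPAR alpha target, read 3344, 2925, 1609 and 1189.7 in GLIP and 3836, 3488, 4322 and 4783 in ROS (log2 difference -0.96 ± 0.26, adjusted p = 0.217). The highest GLIP array lay just under the lowest ROS array for Vnn1, and GLIP 3 and GLIP 4 were much the lowest.

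Smaller differences in the same direction were measured for Tead4, a transcription factor of the Hippo pathway, at -0.51 ± 0.12, for the carbonic anhydrase Car14 at -0.65 ± 0.17 and for the calcium-binding protein S100a3 at -0.76 ± 0.18. Cdkn2aipnl differed by -0.49 ± 0.11 and 4931406C07Rik by -0.39 ± 0.10. For these 5 the arrays of the groups did not overlap, and the adjusted p lay between 0.107 and 0.217. Tpmt, the methyltransferase that inactivates thiopurine drugs, differed by -0.40 ± 0.10 and the retinol dehydrogenase Rdh16 by -0.48 ± 0.12, and both overlapped. Tpmt was the 1 probe set that fell in GLIP against CON, by 0.55 on the log2 scale (adjusted p = 0.0174). That call was lost without GLIP 1, GLIP 3, GLIP 4, CON 3 or CON 4, at adjusted p values of 0.0814, 0.0693, 0.0793, 0.0785 and 0.0594. It was also lost with arrays scaled to equal medians (0.0646), in a fit to the groups alone (0.115) and without the arrays with muscle transcripts (0.0905).

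Lysosomal and autophagy genes leaned to GLIP. None of the 54 tested members passed the adjusted test, but 12 were higher at an unadjusted p under 0.05 (against 3.99% of all genes) and 0 were lower, 8 had non-overlapping arrays (against 2.51%), and 43 had a positive difference. The median of the list was 0.14 on the log2 scale, beside -0.00034 over all genes. Lamp1, a main glycoprotein of the lysosomal membrane, read 10846, 10119, 10059.9 and 10552 in GLIP, 8192, 8078, 8472 and 7916 in ROS and 9357, 9541, 10481 and 11365 in CON. All 4 GLIP arrays lay above all 4 ROS arrays (log2 difference 0.35 ± 0.07, adjusted p = 0.051). Ctsz, a lysosomal cysteine carboxypeptidase, differed by 0.47 ± 0.11. Atp6v1a, the catalytic subunit of the proton pump that acidifies lysosomes, read 1453, 1329.7, 1747 and 1705 in GLIP and 1103, 1101, 1084 and 1130.0 in ROS (log2 difference 0.48 ± 0.11, adjusted p = 0.117). Sqstm1, the p62 receptor that delivers ubiquitinated cargo to autophagosomes, differed by 0.31 ± 0.08 and fell by 0.40 in ROS against CON (adjusted p = 0.0253). That last call was lost without CON 1, CON 2, CON 4, ROS 1 or ROS 2, at adjusted p values of 0.0518, 0.0795, 0.117, 0.0973 and 0.123, and also without a trend (0.0519), in a fit to the groups alone (0.134) and without the arrays with muscle transcripts (0.115).

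By array, the mean log2 of the lysosomal list relative to CON was -0.01, 0.02, 0.19 and 0.01 in GLIP and -0.04, -0.08, -0.12 and -0.12 in ROS, so that the groups did not overlap and GLIP 3 stood above its 3 partners. The median of the list was 0.05 for GLIP minus CON and -0.10 for ROS minus CON, and 11 members were lower at an unadjusted p under 0.05 in ROS against CON (against 4.58% of all genes in that contrast). Macrophages are rich in lysosomes, and their markers moved with the list in GLIP 3: the 12 tested Kupffer cell and macrophage markers were all higher on average in GLIP, with a median of 0.45, 1 of them at an unadjusted p under 0.05 (5 without GLIP 2). The marker at that level with all arrays was Cd14, which differed from CON by -0.23 in GLIP and -0.61 in ROS. Against CON, 9 of the 12 markers averaged higher in GLIP and 3 lower. C1qa, a complement subunit made by macrophages, read 554, 512, 2481 and 932 in GLIP and 447, 799.8, 663 and 485 in ROS, and the macrophage growth factor receptor Csf1r 349.9, 258, 1258 and 438 in GLIP and 251, 524, 317 and 237 in ROS. Without GLIP 3, the marker median was 0.06. The lysosomal list without that array had 8 of 54 genes higher at an unadjusted p under 0.05 and a median of 0.08. The part of macrophages in the difference was not tested.

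Many lysosomal promoters carry the palindrome CACGTG, an E-box read by basic helix-loop-helix factors such as TFEB. In the RefSeq windows of GRCm38.p6, taken over 250 bases before each start site on both strands, 11 of 43 windows of the tested list genes (41 of 54 genes matched) held at least 1 copy, 25.6%, against 6.02% of all 32851 windows. The lines below give 80 bases each of the promoters of Lamp1 (chr8:13159081-13159160 on the plus strand, ending at the base before the start site) and Atp6v1a (chr16:44139350-44139429 on the minus strand), 2 of the lysosomal genes with the smallest p, with CACGTG in capitals. Lamp1 holds 4 copies and Atp6v1a 1.
Lamp1: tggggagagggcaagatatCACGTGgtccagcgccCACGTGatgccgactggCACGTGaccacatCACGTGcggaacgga
Atp6v1a: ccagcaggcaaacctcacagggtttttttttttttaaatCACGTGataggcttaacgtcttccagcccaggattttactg
The matches describe the letters only.

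Cytosolic and mitochondrial chaperones also leaned to GLIP, with 8 of 30 tested members higher (against 3.99%) and 1 lower (against 3.39%) at an unadjusted p under 0.05 and a median of 0.12. Bag3, a partner of Hsp70 in selective autophagy, read 886, 631, 647 and 676 in GLIP, 414, 412, 461 and 455 in ROS and 471, 438, 425 and 403 in CON (log2 difference 0.66 ± 0.15, adjusted p = 0.107). The ROS values lay within the range of CON, and all 4 GLIP values lay above both. Stip1, which hands clients between Hsp70 and Hsp90, differed by 0.61 ± 0.18 with no overlap. Hsp90aa1, the stress-induced Hsp90, read 3731, 3637, 2089.7 and 2722 in GLIP and 1147, 2806, 1648 and 1419 in ROS (log2 difference 0.83 ± 0.22, adjusted p = 0.217), and Hsph1, an exchange factor of Hsp70, read 1775, 1318, 786 and 1277 in GLIP and 466, 1128, 678 and 627 in ROS (log2 difference 0.82 ± 0.26). ROS 2 lay within the GLIP range for both and apart from its 3 partners. Without ROS 2, Hsp90aa1 differed by 1.08 and passed (adjusted p = 0.0323).

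**Figure D3:**
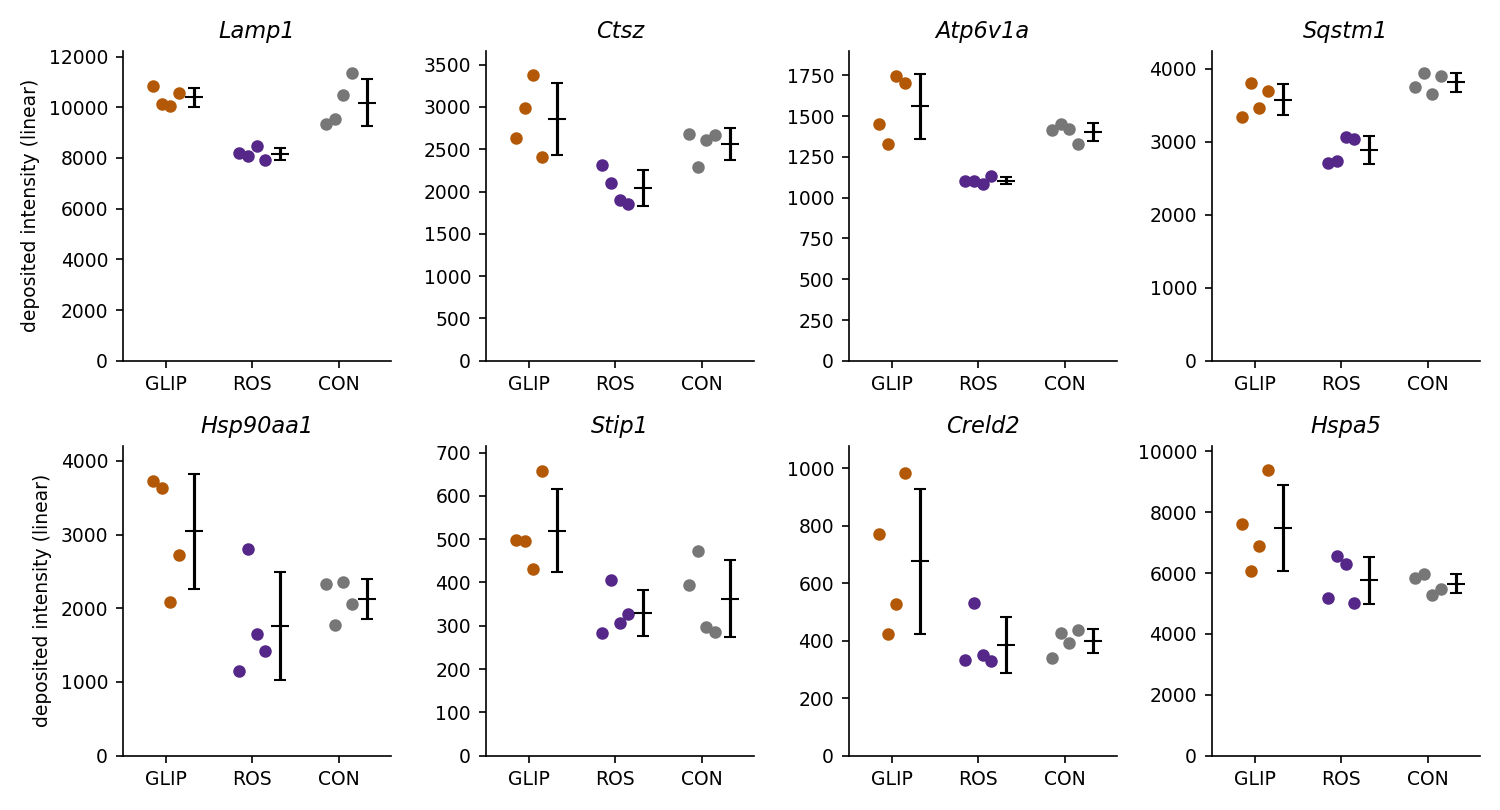
Deposited linear intensity by array for 4 lysosome and autophagy genes (upper row) and 4 chaperone genes (lower row), with points for arrays and black bars for mean and SD (n = 4). ROS points of Lamp1, Ctsz, Atp6v1a and Sqstm1 all lie below the GLIP points, whereas 1 ROS array reaches into the GLIP range for Hsp90aa1 and Creld2 and 2 do for Hspa5.

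At an unadjusted p under 0.05, 6 of 30 endoplasmic reticulum chaperone and stress genes were higher (against 3.99%) and 1 lower (against 3.39%). There were 23 positive differences, and the median was 0.14. Creld2, a chaperone induced when unfolded protein accumulates, read 772, 423, 526 and 983 in GLIP and 333, 532, 351 and 331 in ROS (log2 difference 0.72 ± 0.22, adjusted p = 0.334). Manf, a secreted protein of the same response, differed by 0.54 ± 0.20, and Hspa5, the main Hsp70 of the compartment, read 7621, 6057, 6903 and 9392 in GLIP and 5176, 6556, 6288 and 5014 in ROS (log2 difference 0.37 ± 0.15). GLIP 4 was the highest array for all 3 genes, and the groups overlapped for each. The count of 6 dropped to 2 without GLIP 4 and to 3 and 3 without ROS 1 or ROS 4. The ER stress element, CCAAT and CCACG separated by 9 bases of any kind, occurred on either strand in 6 of 27 RefSeq windows of the list (26 of 30 genes matched), 22.2%, against 0.113% of all windows. These matches, too, describe the letters only. The element is shown in capitals in 80 bases of the promoters of Creld2 (chr15:88819496-88819575 on the plus strand, the element on the minus strand) and Hspa5 (chr2:34771990-34772069 on the plus strand), 2 of the 4 list members with the smallest p.
Creld2: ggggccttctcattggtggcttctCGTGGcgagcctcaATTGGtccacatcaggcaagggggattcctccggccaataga
Hspa5: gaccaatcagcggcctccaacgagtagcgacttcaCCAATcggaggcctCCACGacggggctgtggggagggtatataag

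PPAR alpha target genes leaned to ROS. Of 33 tested, 9 were lower in GLIP at an unadjusted p under 0.05 (against 3.39% of all genes) and 0 higher, 30 had a negative difference, and the median was -0.21. Beside Vnn1, they included the peroxisomal thiolases Acaa1b and Acaa1a, near-identical copies whose probe sets may share signal. Acaa1b read 17549.9, 18879.7, 10419 and 11010.3 in GLIP and 19929, 19930.1, 22652 and 22831 in ROS (log2 difference -0.61 ± 0.19, adjusted p = 0.348), and Acaa1a differed by -0.35 ± 0.12. Crat, which moves acetyl groups onto carnitine, differed by -0.62 ± 0.21. Cyp4a10 and Cyp4a14, fatty acid hydroxylases that respond strongly to PPAR alpha, differed by -0.38 ± 0.17 and -0.54 ± 0.29.

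The difference was carried unevenly by the GLIP mice. The mean log2 of the PPAR alpha list relative to CON was -0.08, 0.13, -0.47 and -0.48 in GLIP and -0.06, -0.23, 0.13 and 0.24 in ROS, so GLIP 3 and GLIP 4 lay low while GLIP 1 and GLIP 2 lay among the ROS arrays. Cyp4a14 shows it in 1 gene, at 12687, 13830.4, 5549.5 and 6759.7 in GLIP and 13879, 9203, 14983 and 15646 in ROS. The count of 9 became 14, 19, 4 and 4 without GLIP 1, 2, 3 or 4, and 18, 5 and 5 without ROS 2, 3 or 4. ROS 4, the array with muscle transcripts, had the highest ROS mean of the list. Pdk4, which spares glucose in fasted muscle and liver, read 181 to 465 in GLIP, and in ROS it read 1680.3 in ROS 4 and 259 to 391 in the others. Without ROS 4 the median of the list was -0.16. The overlapping list of 24 fatty acid oxidation and ketone genes had 6 lower (against 3.39%) and 1 higher (against 3.99%). Its median was -0.17, with 3 lower without GLIP 3 or GLIP 4, 15 without GLIP 2 and 12 without ROS 2.

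**Figure D4:**
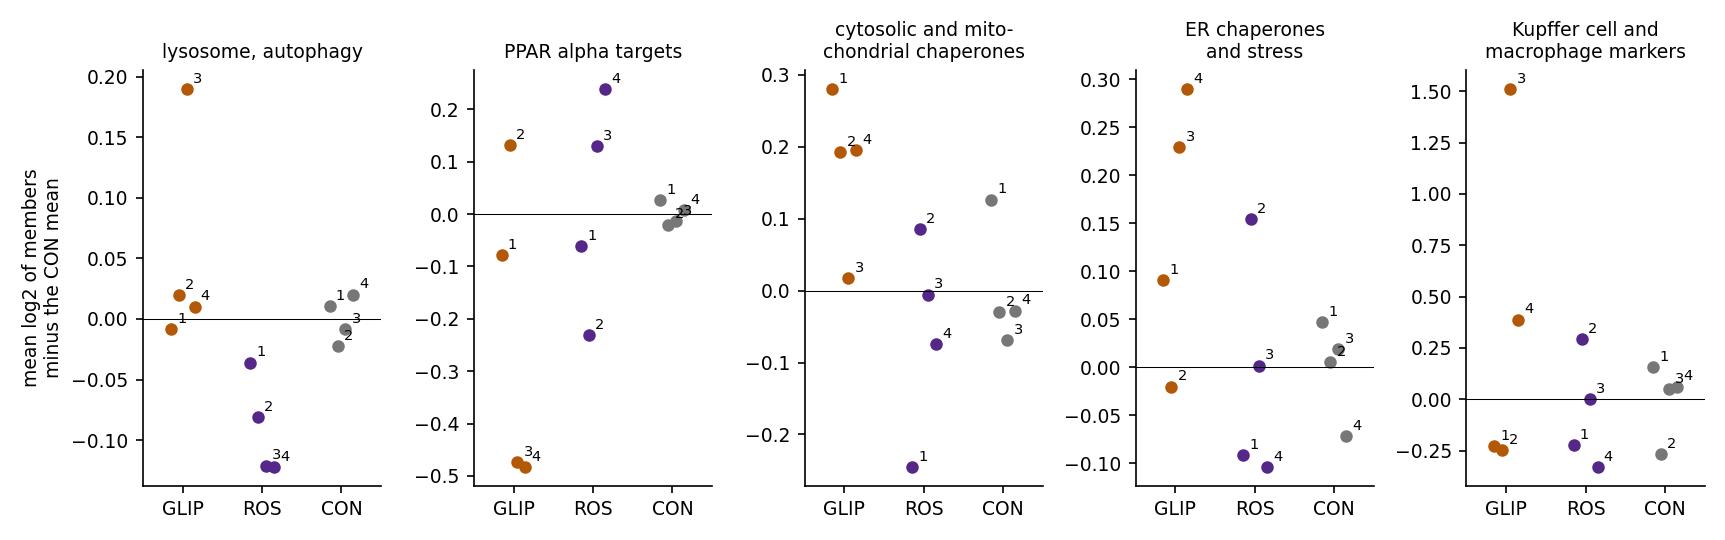
For each array, the mean log2 value of the tested members of 5 gene lists less the mean of the CON arrays, with GLIP, ROS and CON side by side and the array number beside each point; each panel has its own scale. The lysosomal means of GLIP all exceed those of ROS, the PPAR alpha means of GLIP 3 and GLIP 4 lie lowest, and GLIP 3 stands apart in macrophage markers.

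The PPAR gamma list held 19 tested genes that the receptor drives in fat cells or that belong to their lipid stores. At an unadjusted p under 0.05, 2 were lower in GLIP (against 3.39% of all genes) and 0 higher (against 3.99%). The median was -0.08. Fabp4, the fatty acid carrier of fat cells and macrophages, read 39.9, 83.1, 89.7 and 109.6 in GLIP and 85.4, 166, 177 and 209.8 in ROS (log2 difference -0.79 ± 0.30, adjusted p = 0.514), and the lipid droplet coat protein Plin4 read 195, 158, 139 and 18.5 in GLIP and 307, 116, 384 and 333 in ROS (log2 difference -1.13 ± 0.52). Both pairs of groups overlapped, and without ROS 4 no member was lower at that level. Lipoprotein lipase, Lpl, differed by -1.28 ± 0.67 and was highest in ROS 4, at 1032. In CON, Lpl read 832 in CON 3 and 52 to 151 in the other arrays. ROS 4 and CON 3 are the arrays with muscle transcripts. Cd36, the fatty acid translocase, differed by -0.22 ± 0.17, the receptor gene Pparg itself by 0.41 ± 0.27 and the fat cell hormone Adipoq by -0.58 ± 0.38. Adipoq read 345 in CON 3 and 58.1 to 103 in the other CON arrays. The part of other tissue in these values was not tested. Cidea, a lipid droplet protein that lay below the intensity filter, read 62.4, 76.2, 17.9 and 78.3 in GLIP, 194, 96.5, 374 and 411 in ROS and 99.8, 44.1, 204 and 55.4 in CON. All 4 ROS arrays of Cidea exceeded all 4 GLIP arrays, with a log2 difference of -1.69 ± 0.44 when no filter was applied (adjusted p = 0.231); it was chosen after its values were seen.

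Gluconeogenic genes differed by small amounts, with a median of -0.17. At an unadjusted p under 0.05, 2 of 8 tested were lower in GLIP (against 3.39% of all genes). That count was 4 without GLIP 2. Pyruvate carboxylase, Pcx, the mitochondrial entry step, read 1809, 1731, 1374 and 1488 in GLIP and 1916, 2159, 1933 and 2058 in ROS (log2 difference -0.34 ± 0.10, adjusted p = 0.258). Fbp1, fructose-1,6-bisphosphatase, read 15575, 15884, 15825 and 14880.1 in GLIP and 18598, 17335, 17062 and 16937 in ROS, a difference of -0.17 ± 0.06. Both had non-overlapping arrays (against 1.91% of all genes in that direction), with CON near GLIP. The insulin-repressed genes Pck1 and G6pc differed by -0.26 ± 0.14 and -0.16 ± 0.26, and Igfbp1 by 0.61 ± 0.35, none at an unadjusted p under 0.05. The arrays of Igfbp1 did not overlap (against 2.51% of all genes in that direction), at 350 to 501 in GLIP and 215 to 337 in ROS. In CON, Igfbp1 ran from 208 to 861. The lipogenic enzyme Fasn differed by -0.05 ± 0.22 (95% interval from -0.49 to 0.39), and the desaturase Scd1 by -0.35 ± 0.15 (adjusted p = 0.616). Irs2, an insulin receptor substrate, was higher than CON in both drug groups without passing, by 1.57 ± 0.40 (adjusted p = 0.162) in GLIP and 1.49 ± 0.40 (adjusted p = 0.172) in ROS. Between the drugs it differed by 0.09 ± 0.40 (95% interval from -0.74 to 0.91). Kcnj11, the pore of the channel that sulfonylureas close, was dim, at 79.6, 358, 76.9 and 178 in GLIP and 79.8, 92.6, 113 and 96 in ROS (log2 difference 0.50 ± 0.37). Lanosterol synthase, Lss, an enzyme of cholesterol synthesis, read 331, 323, 198 and 341 in GLIP and 175, 163, 171 and 158 in ROS (log2 difference 0.72 ± 0.18, adjusted p = 0.162).

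Among enzymes of drug metabolism, 24 glutathione, glucuronosyl and sulfo transferases were tested. At an unadjusted p under 0.05, 5 were higher in GLIP (against 3.99% of all genes) and 0 lower (against 3.39%). The median of the list, however, was 0.00. The 4 with the smallest p were glutathione S-transferases, which couple reactive compounds to glutathione. Gstp1 read 10461, 13089.8, 12974 and 13502 in GLIP, 7875, 6711, 7992 and 7843 in ROS and 9538, 11068, 9761 and 10377 in CON (log2 difference 0.71 ± 0.15, adjusted p = 0.0797), Gsta3 differed by 0.45 ± 0.13, Gstm1 by 0.25 ± 0.09 and Gstm3 by 0.59 ± 0.27. The first 3 had non-overlapping arrays. These families hold near-identical copies, so the probe sets may share signal between members. The count of 5 was 3 without GLIP 3, GLIP 4, ROS 2, ROS 3 or ROS 4. The lower count, 0 with all arrays, was 3 without GLIP 2 and 2 without GLIP 4, and the median ran from -0.07 to 0.05 with single arrays left out. In cytochrome P450 families 1 to 4, 3 of 24 genes were higher (against 3.99%) and 3 lower (against 3.39%) at that level. Beside Cyp1a2, Cyp2f2 differed by 0.46 ± 0.16, Cyp4v3 by 0.72 ± 0.28 and Cyp2c39 by -0.26 ± 0.11. The lower count ran from 0 without ROS 1 to 7 without GLIP 1.

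**Figure D5:**
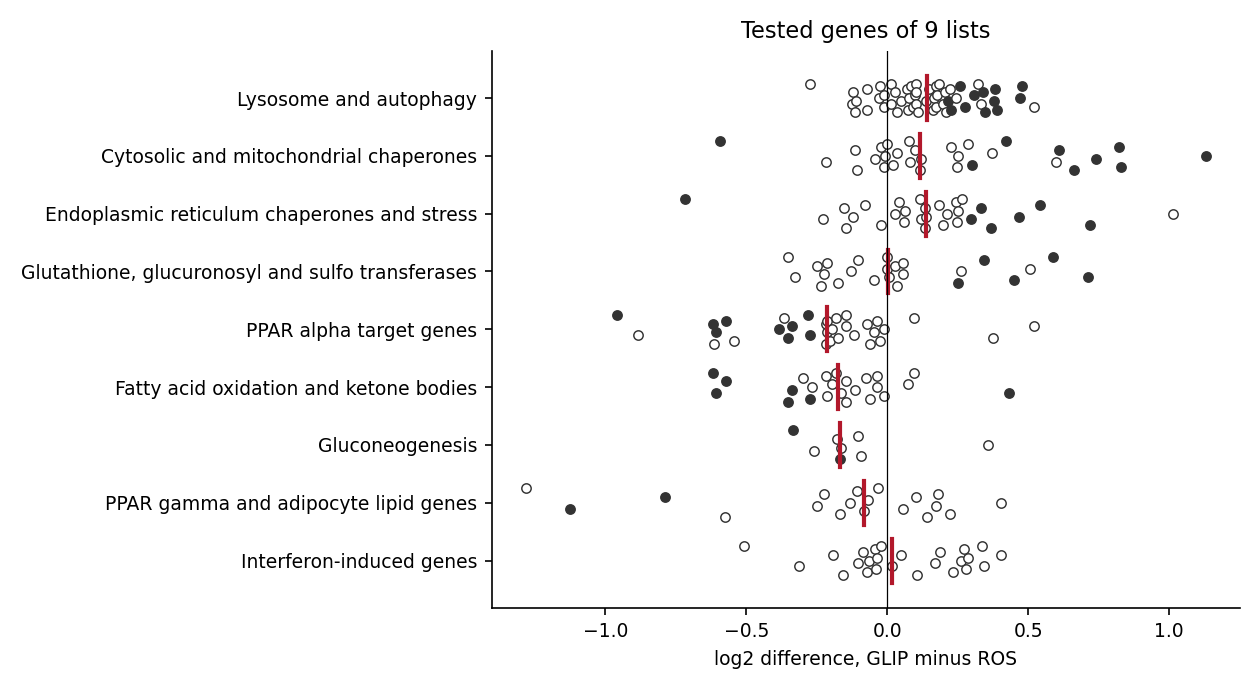
Each circle is a tested gene of 9 lists at its log2 difference GLIP minus ROS, filled where the unadjusted p was under 0.05, with the list median as a red bar. The medians are 0.14 for lysosome and autophagy, 0.12 and 0.14 for the chaperone lists, -0.21 for PPAR alpha targets and 0.02 for interferon-induced genes.

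In iron and metal handling, 1 array stood apart. Hamp, the liver hormone hepcidin that limits iron export, read 14944, 15007, 14026 and 20274 in GLIP and 9013, 219, 11572 and 13696 in ROS, so ROS 2 was far below every other array. Its log2 difference was 1.88 ± 0.65 (adjusted p = 0.418), and without ROS 2 it was 0.50. The metallothioneins Mt1 and Mt2, which bind zinc and copper, were highest in the same array: Mt1 read 7850.0, 5792, 3625 and 3426 in GLIP and 12536, 17533, 3907 and 7941 in ROS, and Mt2 5282, 4113, 3420.1 and 3006 in GLIP and 9668, 15622, 3859 and 6193 in ROS. The mean of the acute phase list relative to CON was also highest in ROS 2, with 0.08 to 0.42 in GLIP, 0.81 in ROS 2 and -0.07 to 0.13 in the other ROS arrays. The summed intensity of the 4 tested neutrophil markers was highest in the same array as well, with 1788 to 2262 in GLIP, 8174 in ROS 2, 1372 to 1949 in the other ROS arrays and 1439 to 2655 in CON. Of that sum, 6951 was Lcn2, lipocalin 2, a neutrophil granule protein that hepatocytes also make in the acute phase and that both lists hold. Elane, Camp and Csf3r, the other 3 markers, were not highest in ROS 2, at 165, 272 and 786 against highs of 236, 285 and 1212 in the other ROS arrays. The part of neutrophils in the values of ROS 2 was not tested.

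Against CON, the drugs gave 10 called probe sets each (0.136% of those tested): 9 higher and 1 lower in GLIP, and 2 higher and 8 lower in ROS. Leaving out single arrays gave 1 to 11 calls for GLIP and 4 to 12 for ROS, the fewest without GLIP 1 and without CON 4. The contrasts share the CON arrays. One probe set was called in both, for Ugcg, the enzyme that makes glucosylceramide, which was chosen after its values were seen. Ugcg read 528, 505, 538 and 491 in GLIP, 618, 560.4, 567 and 547 in ROS and 362, 243, 347 and 323 in CON, higher than CON by 0.66 ± 0.13 (adjusted p = 0.0321) in GLIP and 0.81 ± 0.13 (adjusted p = 0.0019) in ROS. A second probe set of the gene gave smaller differences from CON, 0.23 in GLIP and 0.27 in ROS. Between the drugs the first differed by -0.15 ± 0.13 (adjusted p = 0.858). The call in GLIP was lost without any 1 of the 4 GLIP arrays or without CON 2 or CON 4, at adjusted p values between 0.0575 and 0.119, and without the arrays with muscle transcripts (0.0951). In fits to the groups alone both calls were lost, at adjusted p = 0.124 in GLIP and 0.0818 in ROS. Upp2, a uridine phosphorylase of liver, fell by 1.02 in ROS against CON (adjusted p = 0.012). Wfdc2, a secreted homologue of protease inhibitors, fell by 1.14 (adjusted p = 0.0233). Those calls were lost without CON 3, CON 4 or ROS 3 for Upp2 (adjusted p between 0.0509 and 0.0832), and without CON 1, CON 3, CON 4, ROS 3 or ROS 4 for Wfdc2 (0.0561 to 0.103). Without the arrays with muscle transcripts both were lost, at 0.166 for Upp2 and 0.34 for Wfdc2, and in a fit to the groups alone Wfdc2 was lost (0.158). GLIP minus ROS was 0.31 ± 0.19 for Upp2 and 0.59 ± 0.22 for Wfdc2.

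The largest log2 difference of any tested probe set was at 104421_at, which has no gene symbol here and was singled out after its values were seen. It read 1903, 754, 100 and 836 in GLIP, 6585, 3182, 1356 and 4354 in ROS and 142, 99.9, 289.9 and 182 in CON. GLIP and ROS overlapped, and the log2 difference GLIP minus ROS of -2.40 ± 0.58 did not pass (adjusted p = 0.117), while ROS exceeded CON by 4.12 (adjusted p = 0.000198). In the other groups it averaged 4986 after 8 weeks of calorie restriction, 2479 under lifelong restriction and 824 under metformin. Under glipizide plus metformin it averaged 342.7, and under soy isoflavones 130.3.

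Most other gene groups had medians near zero. Of the 40 gene lists, 31 had a median within 0.1 of zero, and the medians of all 40 ran from -0.21 to 0.20. The highest was that of antigen processing and MHC genes, with 16 of 20 tested members positive and 0 at an unadjusted p under 0.05. By array, the mean log2 of this list relative to CON was -0.06, -0.22, 0.77 and -0.08 in GLIP. In ROS it was -0.15, 0.03, -0.16 and -0.19. GLIP 3, also the highest in macrophage markers, thus stood apart, and the cause was not tested. Interferon-induced genes had no member of 25 at an unadjusted p under 0.05 and a median of 0.02, although their medians against CON were -0.18 in GLIP and -0.29 in ROS. Ribosomal proteins (26 genes, median 0.01), oxidative phosphorylation (65 genes, -0.01) and proteasome subunits (42 genes, 0.02) lay close to zero. Of the 409 named genes at an unadjusted p under 0.05 between the drugs, GLIP lay farther from the CON mean for 216 and ROS for 193, and the CON mean lay between the drugs for 296. These genes were picked for their gap between the drugs. That choice alone tends to place the CON mean between them, so the counts do not show opposite drug effects. The smallest p that an exact permutation test of 4 against 4 arrays allows is 0.0286.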

How the data were processed

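Liver RNA of 32 mice was hybridised to Affymetrix MG-U74Av2 arrays, 1 array per mouse, in 8 groups of 4. The authors deposited 1 linear intensity per probe set, scaled so that each array's 2% trimmed mean lay near 500.4, as read from the table. The sources used here do not name the software or background correction. Of 12488 probe sets, 66 controls were left out; of the others 10833 had 1 symbol, 396 several and 1193 none in the platform annotation, and only the first were named. Values were taken as log2(intensity + 27), 27 being the 20th percentile, which understates changes of dim genes. Probe sets whose mean exceeded that of the 40th percentile (94.2) were kept: 7357, for 5545 genes, each represented by its brightest probe set.

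Differences were tested with limma 3.58.1 (R 4.3.3; lmFit over 8 groups, eBayes with a trend, 24 residual degrees of freedom), with Benjamini-Hochberg adjustment over all 7357; the code was tested on simulated data. The text names, by a rule, the called genes, the 10 genes per direction with the smallest p, up to 4 members per list and textbook genes of both drugs; Ugcg, Cidea and 104421_at fall outside it. Lists and members were chosen with earlier results of these data known. Same-number correlations of array deviations were -0.10 to -0.03 for GLIP with ROS, -0.08 to 0.14 for GLIP with CON and -0.17 to 0.17 for ROS with CON; the numbers were not taken as pairs, and no block was used. Precision is limited by 4 arrays per group.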

Additional observations from a re-analysis of the deposited data

Results flagged for a closer look

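Among the 146 groups of 4 arrays examined (GLIP and ROS, for each named gene and 7 lists), 11 held an array whose gap to its nearest partner exceeded Dixon's 95% critical share of the group's range on the log2 scale. Chance flags about 1 in 20 groups. ROS 2 accounted for 6 of the 11. Hepcidin, Hamp, was at 219 in ROS 2 against 9013 to 13696 in its 3 partners, and Creld2 at 532 in ROS 2 against 331 to 351 in its 3 partners. The phosphatidylcholine carrier Pctp was at 637 in ROS 2 against 1013 to 1094 in its 3 partners, Nmur1 at 129 in ROS 2 against 226 to 242 in its 3 partners, Rdh16 at 1166 in ROS 2 against 1465 to 1485 in its 3 partners and Gstp1 at 6711 in ROS 2 against 7843 to 7992 in its 3 partners. For Pctp, Nmur1, Rdh16 and Creld2 this array lay on the side of the GLIP values, and for Gstp1 and Hamp on the far side.

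GLIP 3 accounted for 3. The mean log2 of the lysosomal and autophagy genes relative to CON was 0.19 there against -0.01 to 0.02 in its 3 partners. Cyp2c39 was at 3599 in GLIP 3 against 4949 to 5018 in its 3 partners and Lss at 198 in GLIP 3 against 323 to 341 in its 3 partners. The remaining arrays were GLIP 1, with Gstp1 at 10461 in GLIP 1 against 12974 to 13502 in its 3 partners, and GLIP 2, with Tpmt at 2101 in GLIP 2 against 1729 to 1762 in its 3 partners. The cause of these was not tested.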

How the results depend on the processing

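GLIP against ROS gave 2 called probe sets, Apoa4 and Rundc3a, and both passed under 20 of 21 alternatives; the exception was the fit to the 2 groups alone, which called 1 other. The count was 4 with quantile normalization, 4 with an added value of 1, 5 with the filter at the 60th percentile, 5 with 1 probe set per gene, 5 with plain _at probe sets, and 2 to 5 with single arrays left out, 5 without ROS 2 and 4 without ROS 4. With the replicate number as a block it was 3. For GLIP against CON (10), it was 6 with arrays scaled to equal medians, 6 without a filter, 5 without a trend, 4 with the replicate block (which lost Ugcg, adjusted p = 0.0606) and 2 without the arrays with muscle transcripts. Leaving out single arrays gave 1 to 11: 1, 4, 5 and 2 without GLIP 1, 2, 3 and 4, 6 without CON 3 and 2 without CON 4. For ROS against CON (10), it was 5 in the fit to the groups alone, and 4 to 12 with single arrays left out, 4 without CON 4. The alternatives without muscle arrays and with a filter on mean intensity were chosen after seeing the data.

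Of the 66 named genes, 63 kept the sign of GLIP minus ROS under every alternative run. The exceptions were G6pc (-0.29 to 0.026 with single arrays left out, above zero without GLIP 3), Irs2 (-0.18 to 0.30, below zero without GLIP 1, GLIP 2 or ROS 3) and Fasn (-0.19 to 0.11, above zero without GLIP 1, GLIP 2 or ROS 4, and 0.028 without the muscle arrays). Scaling to equal medians moved the median of all probe sets to 0.03. The cause of these shifts was not tested. Dim genes such as Cidea lie near the added value, which limits their differences.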
